A study of Rattus norvegicus with 2 samples.

Results

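The jejunal epithelium moves sodium, chloride and bicarbonate through carriers of 4 gene families, and 38 genes of these families were followed here across the epithelial cell types of the rat. They are the rows of the deposited matrices whose symbols begin with Slc4a, Slc9a, Slc12a or Slc26a followed by a number, out of 32883 genes listed, with Slc12a2 left out. The Slc4 family had 10 rows, Slc9 had 9, Slc12 had 8 and Slc26 had 11. The samples were the proximal jejunal epithelium of 2 male Sprague Dawley rats, 6 to 8 weeks old and 180 to 200 g by their sample records, which were fasted overnight and given no treatment that the records name. Epithelium was released with EDTA and dispase, and each rat gave 1 library of 3′ single-cell RNA sequencing. Both libraries belong to the same group, so cell types are compared with each other over 2 replicate animals, and p-values measure the spread between those 2.

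Slc9 proteins exchange sodium for protons, and in the brush border they work beside the Slc26 exchangers, which take up chloride for bicarbonate, so that salt is absorbed without net charge. Slc4 proteins carry bicarbonate, some with sodium and some in exchange for chloride, mostly across the basolateral membrane. Slc12 proteins move chloride together with sodium or potassium, and their activity is set by the WNK kinases and the kinase SPAK, the product of Stk39. CFTR high expresser (CHE) cells are scattered epithelial cells of the rat and human proximal small intestine with very high levels of the chloride channel CFTR.

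Rat 1 held 12033 barcodes and 99986348 unique molecular identifiers (UMIs), and rat 2 held 8252 barcodes and 66469907 UMIs. After filters of over 5000 UMIs and at most 40% mitochondrial UMIs, 5685 epithelial cells of rat 1 and 1575 of rat 2 remained, and 28 barcodes occurred in both libraries, 3 of them among the epithelial cells. Clusters were rebuilt and named from marker genes, so a name with "-like" is a cluster and not the authors' annotation. The enterocyte-like class held 3766 and 1108 cells in rat 1 and rat 2, the crypt-like class 1145 and 39, and the secretory progenitor-like class 195 and 30. The goblet/Paneth-like class held 150 and 110 cells, the enteroendocrine-like (EEC) class 21 and 11, the tuft-like class 21 and 121, and the CHE-like class 7 and 74. Another 380 cells of rat 1 (6.68%) and 82 of rat 2 (5.21%) stayed unnamed. Levels are given as UMIs per 1000000 (CPM) of all UMIs summed over the cells of a class in a rat. The CHE-like sum was shallow in rat 1, at 67531 UMIs, so that 1 UMI was worth 14.8 CPM, against 1015414 UMIs in rat 2.

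The markers below come from the lists that named the classes, so their levels describe the classes and do not test the labels. Several of them differed between the rats. Cftr stood at 1777 and 2878 CPM in the CHE-like cells of rat 1 and rat 2, against 39.7 and 46.4 CPM in enterocyte-like cells. Car7, a carbonic anhydrase on the list of CHE markers, gave 0 and 1 UMIs in CHE-like cells. Of the epithelial cells with a UMI of both Best4 and Otop2, 4 of 6 in rat 1 and 60 of 64 in rat 2 lay in the CHE-like cluster. The 39 crypt-like cells of rat 2 carried goblet markers at a summed 22365 CPM, against 893 CPM in rat 1. In the tuft-like cells of rat 1 the summed stem markers reached 621 CPM and the tuft markers 1036 CPM, against 34.7 and 4210 CPM in rat 2. Paneth markers in the goblet/Paneth-like cells stood at 12491 CPM for rat 1 but only 261 CPM for rat 2. The secretory progenitor-like cells differed in cycling markers, with 736 CPM for rat 1 and 55.2 CPM for rat 2. Red blood cell markers (Hba-a1 and Hbb) summed to 185 and 4538 CPM in crypt-like cells of rats 1 and 2. They summed to 33.4 and 5277 CPM in tuft-like, 59.2 and 1577 CPM in CHE-like, and 51.0 and 41.4 CPM in enterocyte-like cells. The source of these UMIs was not tested.

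Of the 38 carriers, 31 had at least 1 UMI in epithelial cells: all 10 of the Slc4 family, 7 of the Slc9 family, 6 of the Slc12 family and 8 of the Slc26 family. The 7 at 0 UMIs were Slc9a4, Slc9a7, Slc12a1, Slc12a5, Slc26a5, Slc26a9 and Slc26a10. Among them are Slc12a1, the absorptive cotransporter of the kidney, Slc12a5, the neuronal potassium-chloride cotransporter, and Slc26a5, the motor protein of cochlear hair cells. A carrier is described by name where it passed the test in a comparison or averaged 20 CPM or more over the rats in a class, which took in 14. The remaining 17 had between 1 and 982 epithelial UMIs, and their highest class mean lay between 0.00981 and 14.7 CPM. Of the 38, 15 passed the filter on low counts for the tests between classes, and counts of calls below are over those 15.

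The core promoters of 5 carriers are shown because these carriers mark the contrasts that follow: Slc9a2, Slc9a3 and Slc26a3 are exchangers that were higher in enterocyte-like than crypt-like cells, Slc26a2 was higher in CHE-like cells, and Slc12a8 in goblet/Paneth-like cells. The sequences are the 150 bases before the annotated start in RefSeq on build GRCr8, read 5′ to 3′ on the strand of the gene. The deposited counts use build rn6, so these coordinates do not carry over to them. Capitals mark GGGCGG, the core of the SP/KLF motif, or CAAAGNNCA, the core of an HNF4 motif, on either strand.
Slc9a2, chr9:50427362-50427511, plus strand: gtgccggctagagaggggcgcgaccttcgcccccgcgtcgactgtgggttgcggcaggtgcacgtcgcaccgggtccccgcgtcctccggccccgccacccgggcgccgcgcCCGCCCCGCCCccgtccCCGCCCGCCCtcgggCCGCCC
Slc9a3, chr1:30996103-30996252, minus strand: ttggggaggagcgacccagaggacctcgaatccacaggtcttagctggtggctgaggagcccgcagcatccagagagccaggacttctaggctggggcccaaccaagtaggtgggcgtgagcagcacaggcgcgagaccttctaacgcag
Slc26a3, chr6:53751165-53751314, plus strand: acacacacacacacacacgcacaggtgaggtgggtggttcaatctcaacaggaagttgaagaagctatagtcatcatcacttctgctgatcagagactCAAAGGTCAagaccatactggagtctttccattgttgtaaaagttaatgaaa
Slc26a2, chr18:56937113-56937262, minus strand: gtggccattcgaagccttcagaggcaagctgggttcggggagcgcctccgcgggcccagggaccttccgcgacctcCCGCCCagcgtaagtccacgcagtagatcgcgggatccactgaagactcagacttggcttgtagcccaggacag
Slc12a8, chr11:80771016-80771165, minus strand: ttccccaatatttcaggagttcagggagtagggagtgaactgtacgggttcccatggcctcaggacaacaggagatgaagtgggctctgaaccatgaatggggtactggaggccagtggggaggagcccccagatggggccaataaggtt
The window before this start of Slc9a2 was 83.3% G and C and held GGGCGG 5 times, some of them overlapping, all within the last 38 bases, while a later RefSeq start of the gene (46.0% G and C) held neither motif. That of Slc26a3 was 42.7% G and C and held CAAAGNNCA 1 time, 52 bases before the start. That of Slc26a2 was 64.7% G and C and held GGGCGG 1 time, 74 bases before the start, and those of Slc9a3 (62.7%) and Slc12a8 (55.3%) held neither. Across 33469 RefSeq promoters with windows of the same length, 16.5% held GGGCGG and 3.23% held CAAAGNNCA. The motif of GATA factors, searched as AGATAA, is held by 6.78% of promoters, that of CDX factors, searched as CNATAAA, by 6.09%, and the E-box, searched as CAGCTG, by 6.94%, and none of these was found in the 5 windows. The HNF4 pattern was loosened to these letters after a window had been read, and a match describes letters, not a bound site. Windows were found for 29 of the 38 carriers.

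Enterocyte-like cells were first compared with crypt-like cells to ask which carriers differ between the dividing compartment and the absorptive cells. The apical exchangers were higher in enterocyte-like cells in both rats: the sodium-proton exchangers Slc9a2 and Slc9a3, and the anion exchangers Slc26a6, Slc26a3 and Slc26a2. Of the 15 carriers tested, 7 were higher and 1 lower at an adjusted p under 0.05 by edgeR's quasi-likelihood test, where 22.5% of the 8900 genes tested were called. The median log2 fold change was 1.70 over the 15 carriers and 0.03 over all genes tested. The fits rescale the sums by TMM factors, 1.19 and 1.39 in crypt-like and 0.775 and 0.654 in enterocyte-like cells of rats 1 and 2. For the carriers called higher, the log2 fold changes therefore lie above those of the plain CPM printed below.

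Slc9a2 encodes NHE2, an apical sodium-proton exchanger. Enterocyte-like cells held it at 163 CPM (rat 1) and 169 CPM (rat 2), and crypt-like cells at 5.91 and 8.16 CPM. The levels within a class lay close together in the 2 rats and the classes did not overlap. The log2 fold change was 5.45 (SE 0.63, adjusted p = 0.00101, edgeR). Here and below, SE is the absolute log2 fold change divided by the square root of edgeR's F statistic. With each cell thinned to 5000 UMIs, 51.7% and 50.2% of enterocyte-like cells had a UMI of Slc9a2 (75.3% and 82.4% before thinning), against 3.58% and 2.56% of crypt-like cells.

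Slc9a3 encodes NHE3, the main exchanger of sodium absorption in the small intestine. Its enterocyte-like level was 67.6 and 151 CPM in rats 1 and 2, and its crypt-like level 3.67 and 18.6 CPM. Rat 2 was the higher rat in both classes, and the fold was of like size in each rat. Its log2 fold change was 4.45 (SE 1.00, adjusted p = 0.0108, edgeR), with 4.68 in rat 1 and 4.07 in rat 2.

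Slc26a6, an apical exchanger of chloride for bicarbonate and oxalate, had 331 and 513 CPM in enterocyte-like cells and 39.6 and 41.9 CPM in crypt-like cells. A UMI of Slc26a6 was found in 77.1% and 86.6% of thinned enterocyte-like cells and 94.7% and 96.4% before thinning. From crypt-like cells it rose by a log2 fold change of 4.25 (SE 0.72, adjusted p = 0.00370, edgeR).

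Slc26a3 encodes DRA, the chloride-bicarbonate exchanger lost in congenital chloride diarrhea. Enterocyte-like cells held it at 158 and 87.1 CPM, and crypt-like cells at 22.5 and 8.16 CPM. Here rat 1 was the higher rat in both classes, opposite to Slc9a3. This gave a log2 fold change of 3.67 (SE 1.01, adjusted p = 0.0245, edgeR), and the call was kept in 10 of 11 alternative settings.

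Slc26a2, a sulfate-anion exchanger, had 41.2 and 28.3 CPM in enterocyte-like cells and 7.58 and 5.83 CPM in crypt-like cells. Its log2 fold change was 3.11 (SE 0.58, adjusted p = 0.00530, edgeR). Slc12a9, a carrier of the cation-chloride family, had 14.8 and 9.83 CPM against 3.90 and 6.99 CPM. Its log2 fold change of 2.12 (SE 0.70, adjusted p = 0.0472, edgeR) was close to the threshold and stayed a call in 3 of 11 alternatives.

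Slc12a7, the potassium-chloride cotransporter KCC4, had 31.8 and 28.3 CPM in enterocyte-like cells and 14.1 and 19.8 CPM in crypt-like cells, and did not pass (log2 fold change 1.70, SE 0.66, adjusted p = 0.0791, edgeR). With the rat as a block, which pairs the sums of the same animal, it passed (1.70, SE 0.55, adjusted p = 0.0266), as did 39.4% of all genes tested.

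Slc12a8, a carrier of the same family, was the carrier called lower in enterocyte-like cells, and the rats disagreed in size. It had 0.687 and 0.576 CPM in enterocyte-like cells, and in crypt-like cells 1.84 CPM for rat 1 but 97.9 CPM for rat 2. The fitted log2 fold change was -5.25 (SE 1.38, adjusted p = 0.0212, edgeR), with -0.64 in rat 1 and -5.89 in rat 2. All 84 crypt-like UMIs of rat 2 lay in the 12 of 39 cells that had over 1% goblet-marker UMIs, and the other 27 cells had 0. In rat 1, 24 of 32 UMIs lay outside the 10 such cells. Without these cells the log2 fold change was -0.18 (adjusted p = 0.895, edgeR), so the call rested on them.

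**Figure D1:**
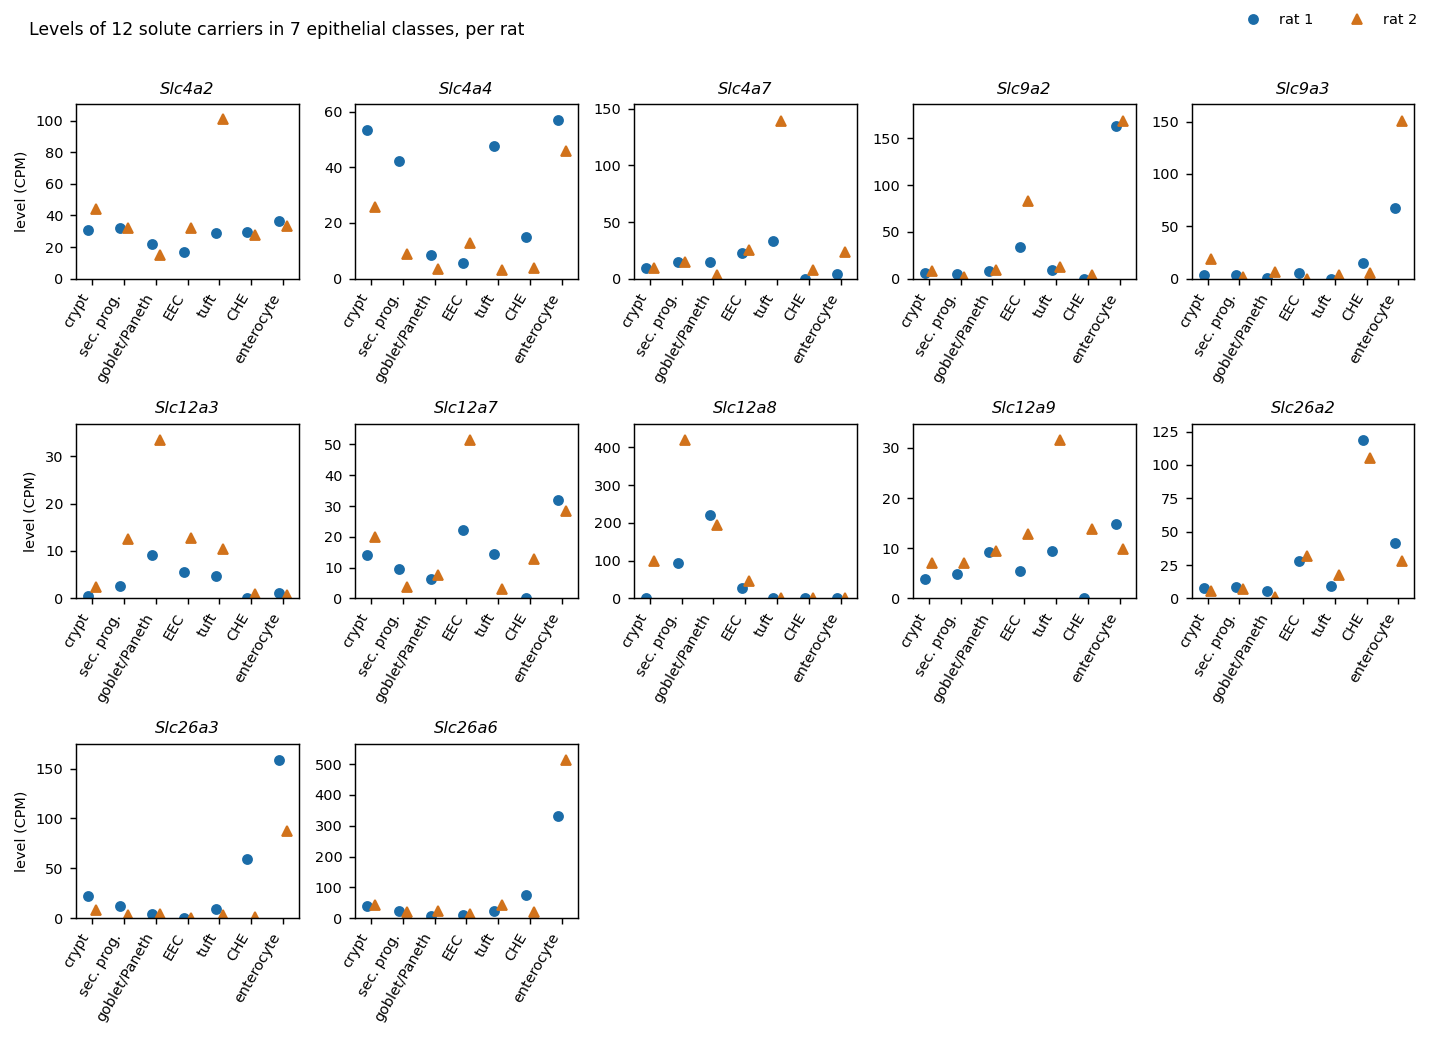
Levels of 12 carriers in CPM (vertical axis, linear, starting at 0) in the 7 epithelial classes, with rat 1 as circles and rat 2 as triangles. Slc9a2, Slc9a3, Slc26a3 and Slc26a6 stand highest in enterocyte-like cells in both rats, Slc26a2 in CHE-like cells (118 and 105 CPM), and Slc12a3 in goblet/Paneth-like cells.

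CHE-like cells were then compared with the mean of the other classes and with enterocyte-like cells, to see which carriers accompany high Cftr. The sulfate-anion exchanger Slc26a2 was the carrier called higher in CHE-like cells than in the mean of the other classes. Slc9a2, Slc26a6 and Slc9a3 were called lower in CHE-like than in enterocyte-like cells. Against the mean of the other classes 1 of 15 carriers was called, where 5.28% of the 8900 genes were called, and the carriers' median log2 fold change was 0.04 (all genes -0.09). Against enterocyte-like cells 3 of 15 carriers were called, all lower in CHE-like cells, where 6.17% of genes were called, and the median was -1.34 (all genes -0.20).

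Slc26a2 gave 8 UMIs in the 7 CHE-like cells of rat 1 (118 CPM) and 107 UMIs in the 74 cells of rat 2 (105 CPM). In the other classes its level was 27.8 and 32.1 CPM in EEC-like, 9.55 and 17.9 CPM in tuft-like, 8.14 and 7.12 CPM in secretory progenitor-like, and 5.40 and 0.681 CPM in goblet/Paneth-like cells. Both CHE-like values lay above every value of the other 6 classes, the nearest being 41.2 CPM in the enterocyte-like cells of rat 1. Against the mean of the other classes the log2 fold change was 3.40 (SE 0.38, adjusted p = 0.000251, edgeR), with 3.15 in rat 1 and 3.76 in rat 2, and the call was kept in all 11 alternatives tested.

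Against enterocyte-like cells alone, Slc26a2 was 2.88-fold in rat 1 (95% exact counting interval 1.24 to 5.68) and 3.72-fold in rat 2 (3.01 to 4.56). These intervals cover counting error only. The test over the 2 rats did not pass (log2 fold change 1.34, SE 0.55, adjusted p = 0.195, edgeR). After thinning to 5000 UMIs, 57.1% of CHE-like cells in rat 1 (exact interval 18.4 to 90.1) and 36.5% in rat 2 (25.6 to 48.5) had a UMI of Slc26a2. The shares in enterocyte-like cells were 17.9% and 11.8%, and in goblet/Paneth-like cells 0.667% and 0.909%. Before thinning they were 57.1% and 68.9% in CHE-like, 36.2% and 35.6% in enterocyte-like, and 3.33% and 0.909% in goblet/Paneth-like cells.

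UMIs of the enterocyte markers Alpi, Apoa1, Apoa4 and Fabp1 were also found in CHE-like cells, where their summed level was 0.0608 of the enterocyte-like level in rat 1 and 0.0345 in rat 2. The source of these UMIs was not tested, and the carriers' ratios are set beside them. Slc9a2 gave 0 UMIs in the CHE-like cells of rat 1, for which the exact interval reached up to 0.335 of the enterocyte-like level, and 4 UMIs in rat 2, a ratio of 0.0233 (0.00635 to 0.0598). The rat 2 interval includes the marker ratio. The log2 fold change for Slc9a2 was -5.78 (SE 0.77, adjusted p = 0.00232, edgeR) and was called in all 11 alternatives.

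Slc26a6 had 5 UMIs (74.0 CPM) and 20 UMIs (19.7 CPM) in CHE-like cells, which is 0.224 (0.0726 to 0.522) and 0.0384 (0.0234 to 0.0593) of the enterocyte-like level. Rat 1 lay above its marker ratio and rat 2 included it. The test gave a log2 fold change of -3.98 (SE 0.78, adjusted p = 0.0103, edgeR), called in all 11 alternatives.

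Slc9a3 had 1 UMI in rat 1 and 5 UMIs in rat 2, ratios of 0.219 (0.00555 to 1.22) and 0.0326 (0.0106 to 0.0761), with a log2 fold change of -4.45 (SE 1.21, adjusted p = 0.0483, edgeR). Its call was kept in 6 of 11 alternatives, and its adjusted p reached 0.148. Only in rat 2 did the counting interval for Slc9a3 stay below 1.

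Slc26a3 and the sodium-bicarbonate cotransporter Slc4a4 also had low CHE-like levels without passing the main test. Slc26a3 gave 4 UMIs in rat 1 and 1 UMI in rat 2, ratios of 0.374 (0.102 to 0.958) and 0.0113 (0.000286 to 0.0631), and a log2 fold change of -3.90 (SE 1.33, adjusted p = 0.116, edgeR). Slc4a4 gave 1 and 4 UMIs, ratios of 0.260 (0.00658 to 1.45) and 0.0859 (0.0234 to 0.221), and a log2 fold change of -3.54 (SE 1.23, adjusted p = 0.117, edgeR). With the rat as a block both passed, Slc26a3 at -4.12 (adjusted p = 0.00955) and Slc4a4 at -3.31 (adjusted p = 0.0212), 5 of 15 carriers were called, and so were 13.1% of all genes.

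Slc4a2 (AE2), a basolateral chloride-bicarbonate exchanger, had 29.6 and 27.6 CPM in CHE-like and 36.4 and 33.4 CPM in enterocyte-like cells. It did not pass (log2 fold change -0.61, SE 0.60, adjusted p = 0.684, edgeR), and the counting intervals of its ratio included 1 in both rats, from 0.0985 to 2.95 and from 0.545 to 1.20. Slc12a2, the sodium-potassium-chloride cotransporter that loads chloride in crypt cells and is not among the 38, had 342 and 340 CPM in crypt-like cells but 1 and 0 UMIs in CHE-like cells.

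**Figure D2:**
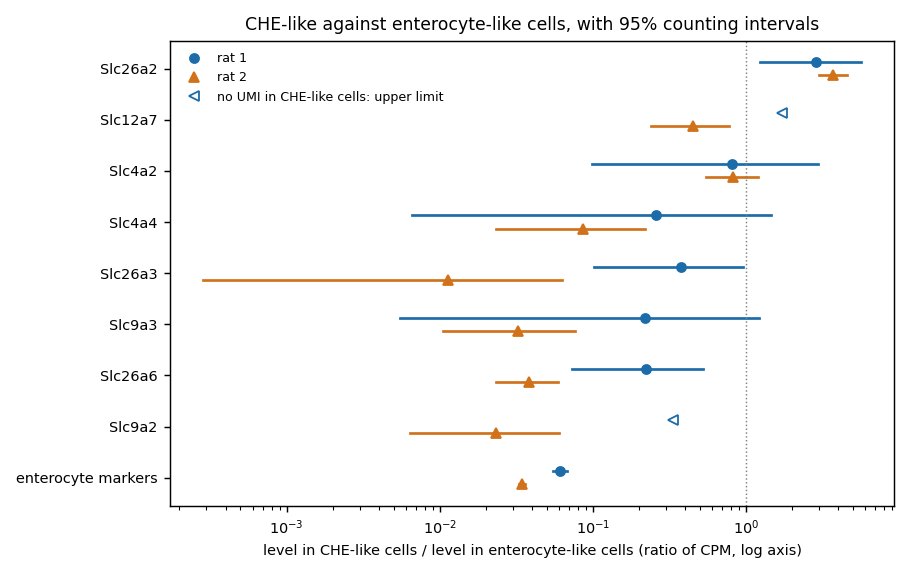
Ratio of the CHE-like to the enterocyte-like level (CPM over CPM, log axis) for 8 carriers and, lowest, the summed enterocyte markers, for rat 1 (circles) and rat 2 (triangles). Bars are 95% exact counting intervals, open arrowheads are upper limits where no UMI was found, and the dotted line is a ratio of 1. Slc26a2 lies above 1 in both rats, and in rat 2 Slc9a2, Slc26a6, Slc9a3 and Slc26a3 lie near the marker ratio of 0.0345.

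Kinases, scaffolds, pumps and enzymes that act with these carriers were counted by lists. The lists were chosen with earlier results of these data known, so the shares of all genes beside them are no test of the lists. Of the 7 WNK and SPAK pathway kinases tested, Stk39 and Wnk4 were higher in CHE-like cells in both comparisons and none was lower, where 5.28% of all genes were called against the mean of the other classes and 6.17% against enterocyte-like cells. Stk39, which phosphorylates Slc12 cotransporters, had 326 and 422 CPM in CHE-like cells, 8.97 and 6.95 CPM in enterocyte-like cells and at most 78.3 CPM in any other class. The CHE-like values did not overlap those of any other class. Its log2 fold change was 4.39 (SE 0.50, adjusted p = 0.000272, edgeR) against the mean of the other classes and 5.23 (SE 0.91, adjusted p = 0.00599) against enterocyte-like cells.

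Wnk4, which acts upstream of SPAK, had 29.6 and 33.5 CPM in CHE-like cells and 0.549 and 0.192 CPM in enterocyte-like cells. EEC-like cells (27.8 and 44.9 CPM) and the secretory progenitor-like cells of rat 2 (42.7 CPM) reached the CHE-like level. The log2 fold change was 6.10 (SE 0.87, adjusted p = 0.00281, edgeR) against enterocyte-like cells and 2.56 (SE 0.58, adjusted p = 0.0212) against the mean of the other classes, which was a call in 9 of 11 alternatives. The rat 1 value of Wnk4 rests on 2 UMIs.

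Of the 9 cofactors and scaffolds of sodium-proton exchangers tested, 6 were higher in enterocyte-like than crypt-like cells (22.5% of all genes called), and 2 were lower in CHE-like than enterocyte-like cells (6.17% of all genes called). These 2 were Pdzk1, a scaffold of NHE3, with 14.8 and 1.97 CPM against 361 and 194 CPM (log2 fold change -6.61, SE 1.26, adjusted p = 0.00899, edgeR), and Ahcyl2, a binding partner of bicarbonate cotransporters, with 29.6 and 12.8 CPM against 249 and 261 CPM (-4.27, SE 0.60, adjusted p = 0.00281). Pdzk1 lost its call in 2 of 11 alternatives, with at most 20% mitochondrial UMIs (-3.00, adjusted p = 0.315, edgeR) and with CHE cells taken by Best4 and Otop2 UMIs (-2.61, adjusted p = 0.202), and Ahcyl2 lost its call in the latter (-2.47, adjusted p = 0.0817). The pump regulator Fxyd3 was lower in CHE-like cells, at 14.8 and 2.95 CPM, than in the mean of the other classes (-5.26, SE 1.35, adjusted p = 0.0424, called in 9 of 11 alternatives), though it was also low in enterocyte-like cells, at 4.63 and 0.653 CPM. Of the 5 channel genes tested besides Cftr, none was called in CHE-like cells in either comparison.

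Of 4 carbonic anhydrases tested, 2 were higher in CHE-like cells than in the mean of the other classes and 1 was lower than in enterocyte-like cells, beside 5.28% and 6.17% of all genes called. Car4, a membrane-bound enzyme that turns carbon dioxide into bicarbonate, had 118 and 226 CPM in CHE-like cells (log2 fold change 5.35, SE 0.66, adjusted p = 0.000401, edgeR), although enterocyte-like cells of rat 1 held it at 116 CPM and those of rat 2 at 28.5 CPM. Against enterocyte-like cells Car4 did not pass (log2 fold change 1.08, SE 0.93, adjusted p = 0.620, edgeR), with -0.45 in rat 1 and 2.67 in rat 2. Against the mean of the other classes Car9 was called at 3.49 (SE 0.88, adjusted p = 0.0439, edgeR). It had 0 UMIs in the CHE-like cells of rat 1 and 18 UMIs in rat 2, so that the call rests on rat 2. It was kept in 6 of 11 alternatives, with an adjusted p up to 0.1199 (DESeq2). Car2, the cytosolic enzyme, had 14.8 and 7.88 CPM in CHE-like cells against 132 and 246 CPM in enterocyte-like cells (-4.70, SE 1.27, adjusted p = 0.0472, edgeR), and was called in 7 of 11 alternatives, with an adjusted p up to 0.132.

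**Figure D3:**
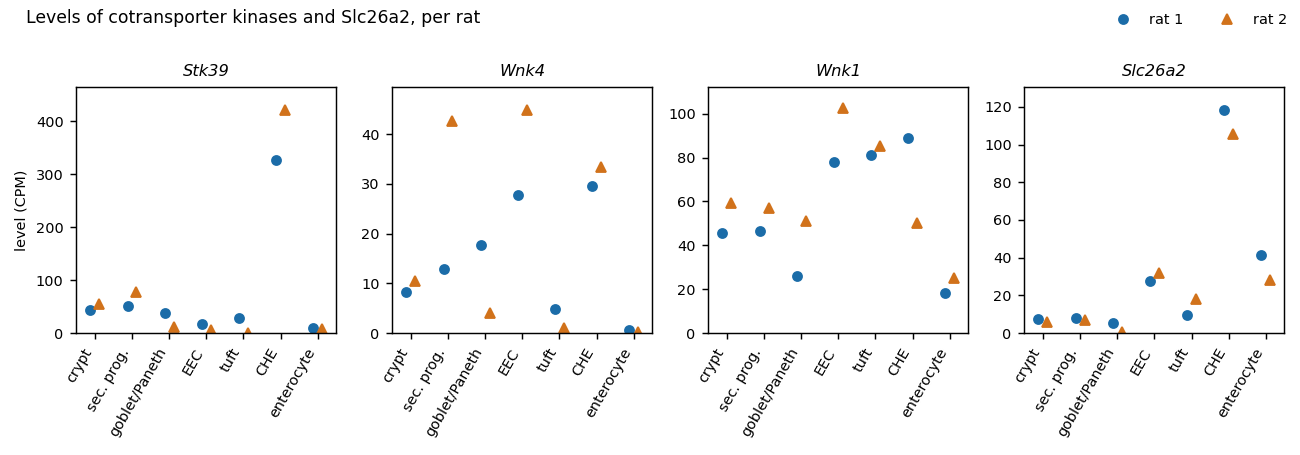
Levels of the kinases Stk39, Wnk4 and Wnk1 and of the carrier Slc26a2 in CPM (vertical axis, linear, starting at 0) in the 7 classes, with rat 1 as circles and rat 2 as triangles. Stk39 and Slc26a2 stand highest in CHE-like cells in both rats, while Wnk4 is matched by EEC-like cells and Wnk1 is spread over the classes.

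Goblet/Paneth-like cells had high levels of 2 Slc12 genes and little Slc26a2. Against the mean of the other classes, 2 of 15 carriers were higher and 1 lower, where 6.35% of genes were called, and the carriers' median log2 fold change was -0.38 (all genes 0.08). Slc12a8 stood at 221 and 193 CPM in goblet/Paneth-like cells, at 94.8 and 418 CPM in secretory progenitor-like cells and at 27.8 and 44.9 CPM in EEC-like cells. It gave 0 UMIs in CHE-like cells of both rats and 0 and 2 UMIs in tuft-like cells. Its log2 fold change was 6.10 (SE 0.92, adjusted p = 0.00250, edgeR), called in all 10 alternatives, with 6.45 in rat 1 and 5.14 in rat 2. A UMI of Slc12a8 was found in 68.0% and 48.2% of thinned goblet/Paneth-like cells (84.0% and 73.6% before thinning), against 0.345% and 0.451% of enterocyte-like cells.

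Slc12a3, the thiazide-sensitive sodium-chloride cotransporter known from the kidney, had 12 UMIs (9.26 CPM) and 49 UMIs (33.3 CPM) in goblet/Paneth-like cells. Secretory progenitor-like cells had 2.63 and 12.5 CPM and enterocyte-like cells 1.06 and 0.614 CPM. Tuft-like cells had 1 and 10 UMIs, which is 4.51 (0.112 to 26.2) and 17.1 (6.94 to 40.1) times the enterocyte-like level. In goblet/Paneth-like cells against the mean of the other classes, Slc12a3 had a log2 fold change of 3.77 (SE 0.65, adjusted p = 0.00424, edgeR), called in all 10 alternatives. Slc26a2 was lower in goblet/Paneth-like cells than in the mean of the other classes (-2.41, SE 0.58, adjusted p = 0.0265), with 7 UMIs in rat 1 and 1 UMI in rat 2, and this call was kept in 8 of 10 alternatives. Different clusters held most of this class in the 2 rats, and the Paneth markers differed between them as given above, and their part in these values was not tested.

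Tuft-like cells were set apart by Slc4a7, the sodium-bicarbonate cotransporter NBCn1, which brings bicarbonate into the cell without net charge. Of 15 carriers it was the 1 called, where 4.57% of genes were called, and the carriers' median was -0.44 (all genes 0.09). Its tuft-like count was 7 UMIs in rat 1, or 33.4 CPM, and 133 UMIs in rat 2, or 140 CPM, against 3.90 and 23.8 CPM in enterocyte-like cells. Within each rat the tuft-like value was the highest of the 7 classes. The ratio to enterocyte-like cells was 8.56 (3.40 to 18.0) in rat 1 and 5.87 (4.83 to 7.09) in rat 2. Against the mean of the other classes the log2 fold change was 2.57 (SE 0.61, adjusted p = 0.0306, edgeR), called in all 10 alternatives.

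A UMI of Slc4a7 was found in 19.0% of thinned tuft-like cells in rat 1 and 44.6% in rat 2 (33.3% and 55.4% before thinning), against 2.02% and 10.7% of enterocyte-like cells. Enterocyte markers in tuft-like cells were 0.112 of the enterocyte-like level in rat 1 and 0.464 in rat 2, beside 8.56 and 5.87 for Slc4a7. The source of these marker UMIs was not tested. In tuft-like cells Slc4a2 had 28.6 and 101 CPM and did not pass (log2 fold change 0.90, SE 0.41, adjusted p = 0.326, edgeR). Slc4a8, a sodium-driven chloride-bicarbonate exchanger singled out after its values were seen, gave 2 and 16 UMIs in tuft-like cells, and 5 and 20 UMIs in all epithelial cells.

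EEC-like cells, 21 and 11 in number, were shallow, with 1 UMI worth 5.56 and 6.41 CPM, and were given no comparison of their own. Slc9a2 stood there at 33.3 CPM (6 UMIs) and 83.4 CPM (13 UMIs), below the enterocyte-like level and above the other classes in both rats. Slc12a7 had 22.2 and 51.3 CPM there. Slc26a4 (pendrin), an anion exchanger of the thyroid and inner ear that was singled out after its values were seen, gave 3 and 2 UMIs, out of 9 and 2 in all epithelial cells.

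Within enterocyte-like cells, a score of upper-villus minus lower-villus genes was used to compare the upper with the lower range of cells, each range holding an equal share of the cells of a rat. The enterocyte markers rose from the lower to the upper range, from 27464 to 156175 CPM in rat 1 and from 40795 to 117223 CPM in rat 2. Apoa1 and Apoa4 belong both to these markers and to the upper-villus genes of the score. Part of this rise was therefore set by the cut, and it is no test of the ranges. By edgeR without a block, 0 of 9787 genes and 0 of 18 carriers tested were called (0.00% of genes), while 1919 genes had an unadjusted p under 0.05 and DESeq2 called 791 genes and 1 carrier, Slc9a5. With the rat as a block, which pairs the ranges cut from the same animal, 35.7% of genes and 8 carriers were called. Without the block and without the filter on low counts, edgeR called 809 genes and 0 carriers. The counts thus depend on the block, the test and the filter. The carriers' median log2 fold change without the block was 0.76 (all genes 0.00).

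Slc4a4, the basolateral cotransporter that brings in bicarbonate, was the 1 carrier called lower, and it fell by plain CPM in both rats. It had 96.2, 49.2 and 18.8 CPM in the lower, middle and upper range of rat 1, and 61.8, 42.1 and 25.98 CPM in rat 2. With the block the log2 fold change was -1.21 (SE 0.31, adjusted p = 0.0311, edgeR), while without it the adjusted p was 0.218.

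Slc4a7, Slc12a3 and, singled out after its values were seen, Slc9a5 were called higher with the block and were also higher by plain CPM in both rats. Slc4a7 went from 2.77 to 5.57 CPM and from 17.7 to 25.7 CPM (log2 fold change 1.36, SE 0.23, adjusted p = 0.00862, edgeR with the block). Slc9a5, an exchanger of the NHE family, went from 1.90 to 4.67 and from 2.42 to 4.71 CPM (1.73, SE 0.26, adjusted p = 0.00656). Slc12a3 went from 0.816 to 1.68 and from 0.387 to 1.37 CPM (1.87, SE 0.49, adjusted p = 0.0312), with 4 and 9 UMIs in rat 2.

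Another 3 calls depend on the scaling. Slc9a2 went from 79.0 to 235 CPM in rat 1 but from 159 to 148 CPM in rat 2, and Slc26a6 from 263 to 390 CPM in rat 1 but from 495 to 484 CPM in rat 2. Slc4a10, a sodium-bicarbonate carrier singled out after its values were seen, went from 3.37 to 7.32 CPM and from 2.90 to 2.89 CPM. The TMM factors, which rescale the sums, were 1.33 and 1.12 in the lower range and 0.924 and 0.706 in the upper range, and with them and the block the log2 fold changes were 1.31 (SE 0.37, adjusted p = 0.0414, edgeR) for Slc9a2, 0.86 (SE 0.20, adjusted p = 0.0209) for Slc26a6 and 1.27 (SE 0.33, adjusted p = 0.0320) for Slc4a10. Slc26a3 went from 174 to 132 CPM in rat 1 and from 126 to 33.7 CPM in rat 2 and was not called.

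**Figure D4:**
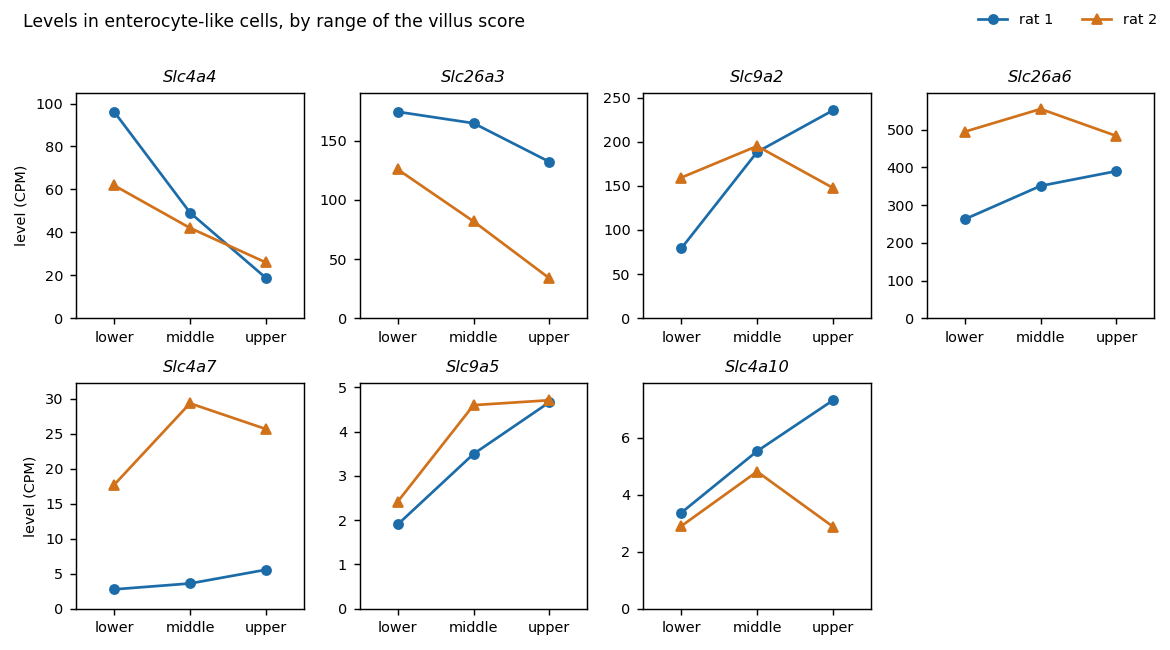
Levels of 7 carriers in CPM (vertical axis, linear, starting at 0) in the lower, middle and upper range of the villus score among enterocyte-like cells, with rat 1 as circles and rat 2 as triangles. Slc4a4 and Slc26a3 fall by CPM in both rats, while Slc9a2, Slc26a6 and Slc4a10 rise in rat 1 and end at or below their lower-range level in rat 2.

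The 2 rats also differed in the levels of several carriers in enterocyte-like cells, where depth was greatest. With 1 library per rat these ratios have no replicates, and their intervals cover counting error only. Rat 2 over rat 1 was 6.10 (5.19 to 7.19) for Slc4a7, 2.23 (2.13 to 2.34) for Slc9a3 and 1.55 (1.52 to 1.59) for Slc26a6. It was 0.550 (0.525 to 0.576) for Slc26a3, 0.688 (0.632 to 0.748) for Slc26a2 and 0.662 (0.572 to 0.764) for Slc12a9. Slc9a2 was nearly even at 1.04 (0.998 to 1.07). The median share of mitochondrial UMIs was 14.3% in the enterocyte-like cells of rat 1 and 25.1% in those of rat 2. The reads of the 2 libraries were counted with different Cell Ranger versions. Neither could be told apart from the animal. The make-up of the class also differed. Alpi stood at 591 and 2204 CPM, and Apoa4 at 9873 and 17833 CPM, in rats 1 and 2. The enterocyte markers together went the other way, at 88180 and 71484 CPM. The enterocyte-like cluster lowest in these markers held 342 cells of rat 1 and 17 of rat 2. The part of cell make-up in these ratios was not tested.

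Slc4a4 and Slc4a2 did not pass the test between enterocyte-like and crypt-like cells, with log2 fold changes of 1.15 (SE 0.85, adjusted p = 0.337, edgeR) for Slc4a4 and 0.77 (SE 0.54, adjusted p = 0.307) for Slc4a2. Slc4a4 had 53.3 and 25.6 CPM in crypt-like and 56.9 and 45.8 CPM in enterocyte-like cells, and 8.49 and 3.40 CPM in goblet/Paneth-like cells. Slc4a2 had 30.5 and 44.3 CPM in crypt-like cells. The fold changes of both carriers were raised by the TMM factors of these classes. A p that misses the threshold does not show equal levels.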

How the data were processed

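The authors deposited 1 matrix of raw UMI counts per rat (gene by barcode), produced by Cell Ranger on build rn6. According to the file headers its version was 3.1.0 in the library of rat 1 but 5.0.1 in that of rat 2. Genes were kept apart by identifier, and the counting may split UMIs between near-identical copies.

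Cells with over 5000 UMIs, at most 40% mitochondrial UMIs and between 200 and 5800 genes were kept, and integrated and clustered in R 4.3.3 with Seurat 5.3.0 on 2000 variable genes, from which the 38 carriers were left out, with 20 principal components. Clusters with Ptprc or hemoglobin and cells with 10 or fewer UMIs of 5 epithelial genes were removed. No doublet caller was run, and the cells above the 95th percentile of UMIs were left out in an alternative. The final clustering resolutions (0.5, 0.5 and 1.0 in successive rounds) and the marker levels that name clusters were set after clusters were seen and before carriers were tested. The members, marker lists and partner lists were chosen with earlier results of these data known.

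UMIs were summed per rat and class and tested with edgeR 4.0.16 (TMM, filterByExpr, quasi-likelihood, Benjamini-Hochberg over all genes tested, threshold 0.05), with all classes in 1 model and the villus ranges in another. A carrier was named where it passed in any comparison or averaged 20 CPM or more in a class, and a partner gene where it passed in a comparison with CHE-like cells. Same-numbered sums come from the same rat, and the deviations of a rat's class sums from the class means correlated in all 21 pairs of classes (median r 0.23, lowest 0.11) and all 3 pairs of ranges (lowest 0.61), so the rat as a block is given where it changed a call. Alternatives were DESeq2 1.42.0, RLE factors, no filter, the rat block, at most 20% mitochondrial UMIs, merging without integration, and a CHE class of cells with Best4 and Otop2 UMIs. Added after seeing the data were the clustering resolutions first tried, an enterocyte naming level of 1.4, library sizes without factors, and crypt-like cells without those over 1% goblet UMIs. The fits were also run on simulated counts, which held no pairing by rat, so these runs do not show how the fits behave on paired sums. Shares of cells were taken after thinning each cell to 5000 UMIs, with 95% exact binomial intervals. Some results are not reported here.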

Additional observations from a re-analysis of the deposited data

Results flagged for a closer look

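The carriers Slc4a1 and Slc9a9 gave signal in cells that the comparisons leave out.
Slc4a1, the anion exchanger band 3 of red blood cells, had 23 UMIs (108 CPM) in 27 cells of rat 1 and 171 UMIs (91.1 CPM) in 244 cells of rat 2 in clusters removed for hemoglobin. In epithelial cells it had 39 UMIs (0.487 CPM) and 20 UMIs (0.609 CPM).
Slc9a9, an endosomal sodium-proton exchanger, had 34 UMIs (12.8 CPM) in the 264 cells of rat 2 in clusters removed for Ptprc, and 3 UMIs (0.0913 CPM) in epithelial cells of that rat. In rat 1 the same clusters gave 1 UMI in 273 cells. Those cells held Slc26a6 at 248 CPM, against 231 CPM in the epithelial cells of rat 1. In rat 2 the values were 239 and 427 CPM. What cells these clusters hold in each rat was not tested. Groups of 2 samples could not be tested for outlying samples.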

How the results depend on the processing

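Over 27 calls followed in the alternatives, 256 of 293 repeats kept direction and side of the threshold, 37 kept direction and lost the threshold, and none reversed in these tests. 14 calls were kept in all. Leaving out a rat leaves no spread, so it gives values and no counts. Car9 in CHE-like cells turned to a log2 fold change of -2.99 without replicate 2 (2.88 without replicate 1).

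This paragraph and the next list the larger moves, and smaller ones only where given. Carriers called were 3 in CHE-like against enterocyte-like cells and became 5 with no filter, 5 with the rat block and 5 merged without integration. They became 2 with at most 20% mitochondrial UMIs, the Best4 and Otop2 class, the enterocyte level of 1.4, RLE and plain library sizes. Without cells above the 95th percentile of UMIs and with the first resolutions they became 4. Against the mean of the other classes 1 became 2 with no filter and 2 merged. Enterocyte-like against crypt-like calls went from 8 to 5 with plain library sizes, and lay between 6 and 9 in the other settings. Goblet/Paneth-like calls went from 3 to 5 with no filter. They went to 2 with at most 20% mitochondrial UMIs and without cells above the 95th percentile of UMIs. Tuft-like calls went from 1 to 2 with the first resolutions, 3 with no filter and 2 merged. In the villus ranges 0 became 1 with DESeq2 and 8 with the rat block.

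Of all genes, CHE-like against enterocyte-like calls went from 549 to 282 with at most 20% mitochondrial UMIs, 274 with the Best4 and Otop2 class, 857 with DESeq2, 848 with the first resolutions, 1227 with no filter, 1164 with the block and 1211 merged. Against the mean of the other classes 470 became 936 with no filter, 745 with the block and 875 merged. Enterocyte-like against crypt-like calls went from 2005 to 3020, 3511 and 3164 in the same order. Goblet/Paneth-like calls went from 565 to 1454 with the first resolutions, 249 with plain library sizes, 1079 with no filter and 1008 with the block. Tuft-like calls went from 407 to 650 with the first resolutions, 921 with no filter, 614 with the block and 931 merged. The villus ranges went from 0 to 791 with DESeq2, 809 with no filter and 3491 with the block. The causes were not tested.

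Scaling moved the median log2 fold change of all genes between enterocyte-like and crypt-like cells from 0.03 with TMM to -0.25 with RLE and -0.79 with plain library sizes. Calls there were 1001 higher and 1004 lower with TMM, 803 and 1282 with RLE, and 579 and 1874 with plain library sizes. The first resolutions gave no enteroendocrine cluster, so the mean was over the remaining classes. Depth limits the 7 CHE-like cells of rat 1 most.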
